A study of Mus musculus with 4 samples.

Results

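The nuclear genes of oxidative phosphorylation were followed in valve-forming tissue of the embryonic mouse heart, complex by complex. They were taken from the count table by symbol: rows starting with Nduf (complex I), Sdha, Sdhb, Sdhc and Sdhd (complex II), and rows starting with Uqcr (complex III), Cox4 to Cox8 (complex IV) and Atp5 (complex V, the ATP synthase). This rule took 90 of 23337 rows. Of these, 81 encode subunits: 36 of complex I, 4 of complex II, 8 of complex III, 18 of complex IV and 15 of complex V. The other 9 were not counted as subunits and are given apart. They are assembly factors, the supercomplex factor Cox7a2l and other genes whose names match the rule. Ndufa4 was counted with complex IV, where its protein is now placed. The rule also leaves out some subunits with other names, such as Cyc1 of complex III. Cyc1, and lists that hold further such genes, are described near the end. The subunits read from mitochondrial DNA were not analysed here.

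Cardiac cushions, the swellings that form the valves, were dissected from C57BL/6 embryos at embryonic day 14.5, using the GFP of a Cre reporter to find them. The 2 libraries labelled mutant came from Nfatc1Cre;Brg1F/F embryos, in which Cre of the endocardial lineage recombines floxed Brg1 (gene symbol Smarca4), the ATPase of a SWI/SNF chromatin remodeller. The 2 libraries labelled wildtype came from littermates. Whether the littermates carried Cre or a floxed allele, and whether a library held 1 embryo or several, is not given in the sources used here, so a p-value here rests on the spread among these libraries alone, which may be technical. The study describes its samples as pairs, with numbers 1 and 2 used in each genotype. Mutant replicate 1 is therefore set beside wildtype replicate 1 (pair 1) and mutant replicate 2 beside wildtype replicate 2 (pair 2).

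Each library held 14104458 to 22426537 reads in genes, and levels are given as CPM, counts scaled to a common total of gene reads. Smarca4 measured 251 and 231 CPM in wildtype 1 and wildtype 2, against 282 and 239 CPM in mutant 1 and mutant 2, so its total level does not bear out the genotype labels, and each genotype named below is a label. Xist, the RNA of the inactive X chromosome, measured 2047, 2317 and 2659 CPM in wildtype 1, wildtype 2 and mutant 1 but 13.3 CPM in mutant 2, and the Y-linked Ddx3y measured 239 CPM in mutant 2 and at most 1.77 CPM elsewhere, so pair 2 also differs in sex. All 15 endocardial and endothelial markers and all 13 cushion mesenchyme markers exceeded 1 CPM in every library, and so did all 24 cardiomyocyte markers: Ttn, which encodes titin, measured 29552 to 37497 CPM. The tissue thus held heart muscle RNA beside that of the cushion, and in bulk RNA fewer cells of a type and less RNA per cell cannot be told apart.

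The respiratory chain passes electrons from NADH at complex I and from succinate at complex II through ubiquinone to complex III, and by cytochrome c to complex IV, which reduces oxygen. Complexes I, III and IV pump protons across the inner mitochondrial membrane, and complex V makes ATP from their return. Heart muscle depends on this system more than most tissues and makes its own isoforms of several complex IV subunits. Transcription factors known to act on these genes include NRF1, ETS family members such as GABPA, and YY1.

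Recognition sequences of these factors were looked for in the promoters, taken as 250 bases before to 50 bases after the RefSeq gene start, in the GRCm38.p6 assembly. A promoter was matched by symbol for 74 of the 90 rows, 67 of them subunit genes. The NRF1 pattern, GCGCA and GCGC with any 1 base between them, searched on both strands like the others, was present in 17 of 67 subunit promoters (25.4%) and in 1254 of 17492 promoters of protein-coding genes (7.17%). It stood in 6 of 14 promoters of complex V (42.9%), 7 of 32 of complex I (21.9%), 2 of 3 of complex II, 1 of 5 of complex III and 1 of 13 of complex IV (7.69%). The ETS pattern CCGGAAG was present in 23.9% of subunit promoters and 12.9% of all promoters, and the YY1 pattern AANATGGCG in 14.9% and 3.64%. None of the 3 patterns contains another, and a match is a description of the letters, not of binding. The windows below are shown because their genes return in the results: Sdha and Sdhd, members of one complex with unlike values, Ndufb4, which like Sdha has 3 matches, Atp5k with the lowest log2 fold change of complex V, and Cox6a1, the only match in complex IV. Each is read 5′ to 3′ on the gene's strand, with the NRF1 pattern in capitals.
Sdha (chr13:74350319-74350348, minus strand): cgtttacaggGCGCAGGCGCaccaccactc
Sdha (chr13:74350276-74350305, minus strand): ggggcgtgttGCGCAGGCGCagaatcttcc
Sdha (chr13:74350231-74350260, minus strand): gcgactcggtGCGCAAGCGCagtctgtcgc
Sdhd (chr9:50603909-50603938, minus strand): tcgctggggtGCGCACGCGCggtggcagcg
Ndufb4 (chr16:37654540-37654569, minus strand): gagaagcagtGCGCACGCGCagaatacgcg
Ndufb4 (chr16:37654428-37654457, minus strand): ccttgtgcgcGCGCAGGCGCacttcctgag
Ndufb4 (chr16:37654371-37654400, minus strand): cctcatatccGCGCAGGCGCagatgtgcgc
Atp5k (chr5:108434430-108434459, minus strand): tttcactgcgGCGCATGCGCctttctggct
Cox6a1 (chr5:115349101-115349130, minus strand): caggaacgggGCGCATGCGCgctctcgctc
Cox6a1 (chr5:115349056-115349085, minus strand): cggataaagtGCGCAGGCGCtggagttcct
In Ndufb4 the pattern begins 191, 79 and 22 bases before the gene start, in Sdha 98, 55 and 10 bases before it, and in Cox6a1 162 and 117 bases before it. In Sdhd it begins 79 bases and in Atp5k 50 bases before the start. In Atp5k and in the first window of Cox6a1 the pattern is its own reverse complement, so it is found on both strands.

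Transcripts of all 5 complexes were abundant. The 90 rows together took 1.53%, 1.29%, 1.12% and 1.40% of gene reads in wildtype 1, wildtype 2, mutant 1 and mutant 2. Per kilobase of transcript, complex V ranked highest, with a median of 226 CPM per kilobase over its 15 subunits, and complex I lowest, with 88.2 over its 35 tested subunits. Atp5b, the catalytic beta subunit of the F1 head, had the highest mean level of all, 822 CPM per kilobase. It was followed by Cox6c of complex IV with 769 CPM per kilobase, Atp5a1, the alpha subunit beside Atp5b, with 584, and Uqcrb, a small subunit of complex III, with 581. Ndufb9 led complex I with 194 CPM per kilobase, and Sdhd and Sdha led complex II with 157 and 148. At the other end, beside the complex IV isoforms of other tissues Cox4i2, Cox6b2 and Cox7b2 with 6.12, 4.17 and 0.94, stood Uqcrq with 10.6 and Ndufab1, the mitochondrial acyl carrier protein, with 12.6 CPM per kilobase. Ndufs5 and Cox8c were listed with 0 reads in every library, where 3 reads would be 0.134 to 0.213 CPM. Reads that align to several places stayed out of the counts, and many subunit genes have processed copies elsewhere in the genome, so low levels of single subunits are uncertain. Levels per kilobase also depend on the transcript chosen. It has 1521 bases for Uqcrq and 3479 for Ndufab1, against a median of 732 over the subunits, and their mean levels were 16.1 and 43.8 CPM.

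Between the genotypes, no subunit differed by the test, in any complex. Of 88 rows that passed the filter on low counts, 79 of them subunits, 0 passed edgeR's quasi-likelihood test at an adjusted p of 0.05. The background was 9 of 14316 tested genes (0.0629%). With the replicate number as a block, 0 members were called against 0.887% of all genes, and by DESeq2 0 members against 0.433%. At an unadjusted p under 0.05 there were 5 subunits lower in the mutant libraries (Atp5k, Atp5l, Cox7b2, Ndufc1 and Sdhd) and 0 higher, where 1.90% of all genes were lower and 3.88% higher. The median log2 fold change, mutant over wildtype, was -0.14 over the subunits and -0.003 over all tested genes. It lay below 0 in 62 of 79 subunits, as it did in 50.5% of all genes. Both mutant libraries lay below both wildtype libraries in 8 subunits (Atp5k, Atp5l, Cox4i2, Cox7b2, Ndufc1, Ndufs6, Sdha and Sdhd), against 16.3% of all genes, and above both in 1, Atp5d, against 17.0%. In the authors' deposited table, which held 85 of the 90 rows, 0 had an adjusted p below 0.05 and the smallest was 0.357, for Cox5b.

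The pairs went in opposite directions. In pair 1, 73 of 79 subunits measured lower in the mutant library, with a median log2 ratio of -0.48, a fold of 0.717. In pair 2, 64 of 79 measured higher in the mutant library, with a median of 0.13, a fold of 1.09. Over all tested genes the medians were -0.002 and 0.003, with 50.3% of genes lower in pair 1 and 50.5% higher in pair 2. Lower in pair 1 and higher in pair 2 were 59 subunits, against 26.2% of all genes. Lower in both pairs were 14 (24.1% of all genes), higher in both 5 (24.3%), and Uqcrq alone was higher in pair 1 and lower in pair 2 (25.5%). A pair holds 1 library of each genotype, so no test of the difference between pairs was possible. The size of the genotype value thus depends on the libraries that enter it: the subunit median was -0.40 without mutant replicate 2 and -0.01 without mutant replicate 1, and it lay below 0 in each fit that left out 1 library. The log2 fold change lay below 0 in 74 of 79 subunits without mutant replicate 2 and in 40 of 79 without mutant replicate 1. Over all tested genes the medians of these fits were -0.003 and -0.007.

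**Figure D1:**
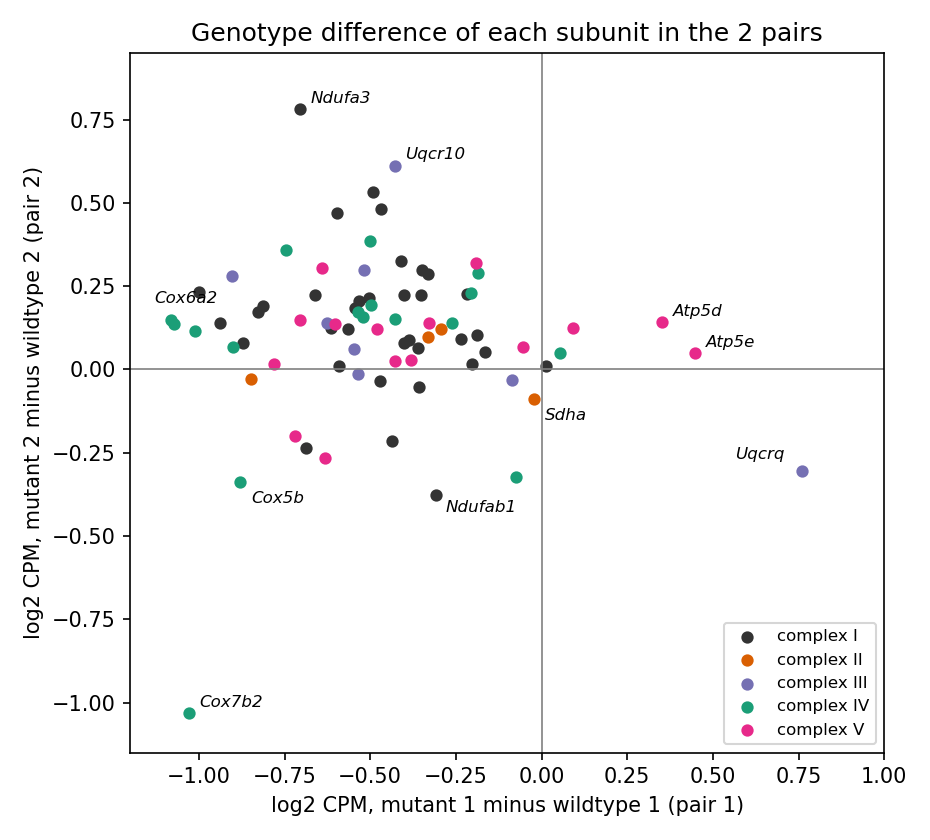
Log2 ratio of mutant over wildtype in pair 1 (horizontal) against pair 2 (vertical), 1 point per subunit, coloured by complex. The upper left area holds 59 of the 79 subunits, lower in pair 1 and higher in pair 2, and Uqcrq stands alone at the lower right.

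The same order of libraries recurred from gene to gene. Wildtype 1 was highest, followed by mutant 2, wildtype 2 and mutant 1, in 30 of 79 subunits, an order seen in 6.92% of all tested genes. Mutant replicate 1 was the lowest library in 61 subunits, against 30.8% of all genes. Wildtype replicate 1 was the highest in 44 (27.0% of all genes) and mutant replicate 2 in 26 (22.3%). Expressed as deviation from the gene's own mean, the subunit medians were 0.22 in wildtype 1, -0.02 in wildtype 2, -0.30 in mutant 1 and 0.10 in mutant 2. Over all subunits, libraries of one genotype thus differed by more than the genotypes did, whose median log2 fold change was -0.14. The median log2 ratio was -0.25 for wildtype 2 over wildtype 1 and 0.37 for mutant 2 over mutant 1. These are ratios of single libraries, while the fold change compares groups of 2, and the 2 mutant libraries also differ in sex. In complexes IV and V the wildtype ratio was -0.09 and -0.17, no larger than their genotype medians of -0.14 and -0.17.

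**Figure D2:**
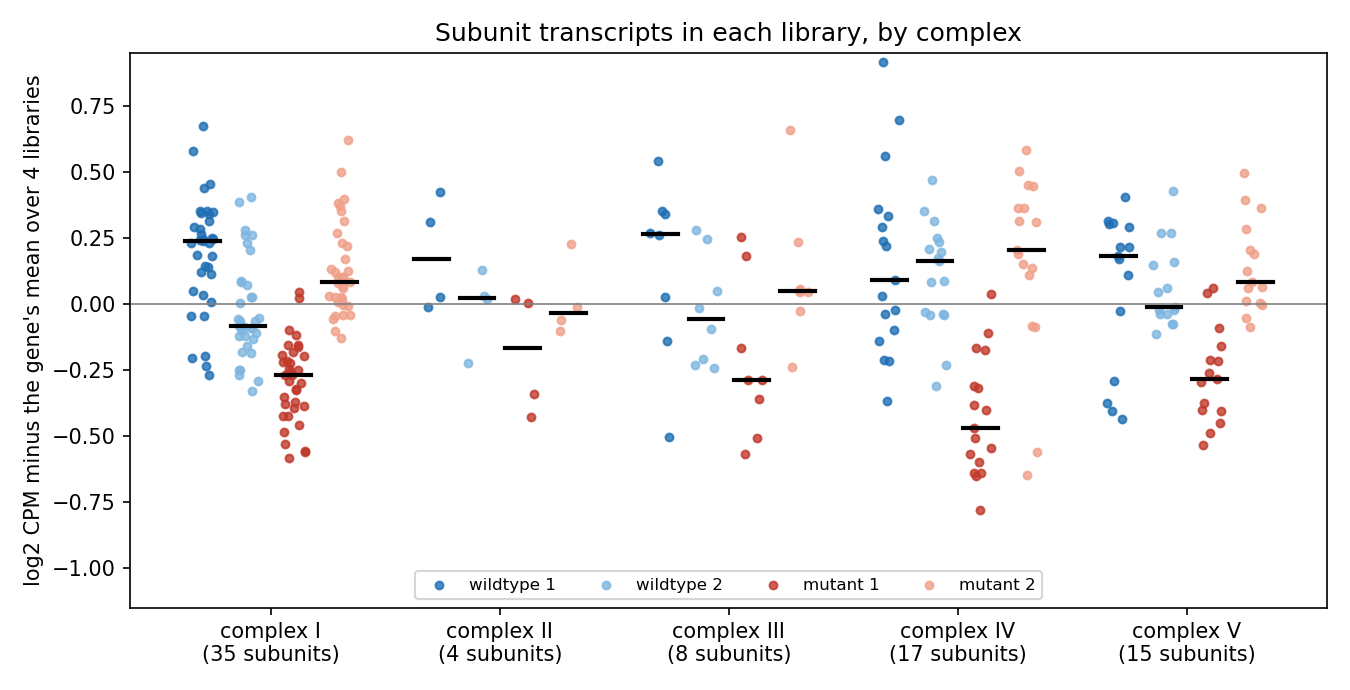
Deviation of each subunit's log2 CPM from its mean over the 4 libraries, by complex and library, with black bars for the median over subunits. Mutant replicate 1 has the lowest median in each complex, from -0.17 in complex II to -0.47 in complex IV.

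Complex I, the NADH dehydrogenase, showed the contrast between pairs in nearly all its subunits. In pair 1, 34 of 35 tested subunits were lower, with a median log2 ratio of -0.47, and in pair 2, 30 were higher, with a median of 0.14. The 7 core subunits, among them the carriers of the flavin and the iron-sulphur clusters, were lower in pair 1 and higher in pair 2 without exception (medians -0.36 and 0.22), and wildtype 1 was their highest library in each case. The 28 accessory subunits had medians of -0.50 and 0.12. Among the core, Ndufv1, which binds the flavin that takes electrons from NADH, measured 219 and 152 CPM in wildtype 1 and wildtype 2, against 189 and 177 CPM in mutant 1 and mutant 2. The groups overlap, and its log2 fold change was -0.02 ± 0.17 (SE).

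Ndufa12, an accessory subunit added late in assembly, had the lowest log2 fold change of the complex, -0.46 ± 0.26 (SE). It measured 195 and 99.6 CPM in the wildtype libraries, against 97.4 and 117 CPM in the mutant libraries: wildtype 1 stood alone, and the other 3 lay close together. Ndufa3 had the highest, 0.14 ± 0.32 (SE), and the widest gap between pairs, with log2 ratios of -0.70 and 0.78. Its levels were 39.7 and 32.7 CPM in wildtype against 24.3 and 56.3 CPM in mutant libraries, so the mutant libraries held both its lowest and its highest value. Ndufb9, the most abundant per kilobase, measured 172, 126, 112 and 138 CPM in wildtype 1, wildtype 2, mutant 1 and mutant 2, the common order of libraries. Ndufb4, whose promoter holds 3 NRF1 matches, measured 121, 84.8, 62.9 and 93.3 CPM in that order. Of the 28 accessory subunits, 5 were lower in both pairs and 1 was higher in both. Ndufc1 (log2 ratios of -0.69 and -0.24) and Ndufs6 (-0.44 and -0.22) were lower without overlap between groups. The log2 fold change of Ndufc1 was -0.45 ± 0.18 (SE; edgeR unadjusted p 0.0323, adjusted p 0.783). Ndufab1 was lower in both pairs, by -0.31 and -0.38, with overlap, and Ndufa8 had a ratio of 0.01 in each.

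The 4 assembly factors of complex I that the rule took, Ndufaf1 to Ndufaf4, act on the complex without being part of it and were lower in pair 1 in all 4 cases, with a median of -0.45, and had a median of 0.22 in pair 2. Ndufaf4 measured 80.3 and 66.3 CPM in wildtype against 58.8 and 76.1 CPM in mutant libraries. Ndufaf2 was the most even by genotype, with pair ratios of -0.56 and 0.57.

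Complex II, succinate dehydrogenase, is also an enzyme of the citric acid cycle and is encoded wholly in the nucleus. All 4 subunits were lower in pair 1, by log2 ratios of -0.02 and -0.33 for the catalytic subunits Sdha and Sdhb and of -0.29 and -0.85 for the membrane anchors Sdhc and Sdhd. The subunits did not separate by role, since Sdhb and Sdhc were nearly alike. In pair 2, Sdhb and Sdhc were higher in the mutant library and Sdha and Sdhd lower, and the median over the 4 was 0.03. Sdha, the flavoprotein (chr13:74322254-74350280, minus strand), was the steadiest: 437 and 438 CPM in wildtype 1 and wildtype 2, against 430 and 412 CPM in mutant 1 and mutant 2. Both mutant libraries lay below both wildtype libraries, by little, and the log2 fold change was -0.06 ± 0.13 (SE; edgeR adjusted p 0.985).

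Sdhd (chr9:50596357-50603812, minus strand) measured 254 and 192 CPM in wildtype against 141 and 188 CPM in mutant libraries. Here too the groups do not overlap, but wildtype 2 and mutant 2 are nearly equal, and most of the difference lies in pair 1. The log2 fold change of Sdhd was -0.44 ± 0.18 (SE; unadjusted p 0.0371, edgeR adjusted p 0.811). Sdhb, the iron-sulphur subunit, measured 149 and 165 CPM in wildtype against 119 and 176 CPM in mutant libraries, and Sdhc 133 and 91.9 CPM in wildtype against 109 and 100.1 CPM in mutant libraries. Both overlapped between groups. The promoters of Sdha and Sdhd both hold the NRF1 pattern shown above, while their pair 1 ratios were -0.02 and -0.85.

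Complex III, the cytochrome bc1 complex, was lower in pair 1 in 7 of 8 subunits, with a median of -0.53, and higher in pair 2 in 5 of 8, with a median of 0.10. Uqcrb, a small subunit near the ubiquinone site (chr13:66900617-66905378, minus strand), measured 439 and 257 CPM in wildtype against 235 and 312 CPM in mutant libraries. Its groups overlap, its pair ratios were -0.90 and 0.28, and its log2 fold change was the lowest of the complex, -0.35 ± 0.24 (SE). Uqcrfs1, the Rieske iron-sulphur protein that passes on the electrons, followed the common order with 185 and 153 CPM in wildtype against 127 and 160 CPM in mutant libraries. Of the core proteins, Uqcrc2 had pair ratios of -0.63 and 0.14 and Uqcrc1 of -0.09 and -0.03.

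Uqcr10, a small accessory subunit, had the highest log2 fold change of complex III, 0.21 ± 0.33 (SE), from 24.4 and 27.8 CPM in wildtype against 18.1 and 42.6 CPM in mutant libraries. The mutant libraries lay on either side of both wildtype libraries. Uqcrh, the hinge protein, measured 235 and 274 CPM in wildtype against 162 and 271 CPM in mutant libraries, so only mutant 1 stood apart. Uqcrq, with pair ratios of 0.76 and -0.31, was the subunit that ran against the pattern, at 11.0 and 19.1 CPM in wildtype against 18.7 and 15.4 CPM in mutant libraries.

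Complex IV, cytochrome c oxidase, had 17 tested subunits. In pair 1, 16 were lower, with a median of -0.52, and in pair 2, 14 were higher, with a median of 0.15. Unlike the other complexes, it had mutant 2 as the highest library more often (10 subunits) than wildtype 1 (6 subunits). Cox5b, which sits on the matrix side of the enzyme (chr1:36691449-36693681, plus strand), measured 706 and 302 CPM in wildtype 1 and wildtype 2, against 384 and 239 CPM in mutant 1 and mutant 2. It was lower in both pairs, with log2 ratios of -0.88 and -0.34, but wildtype 1 exceeded wildtype 2 by 2.34-fold, and the groups overlap. Its log2 fold change was -0.69 ± 0.35 (SE), the lowest among well-expressed subunits of all complexes. The adjusted p was 0.907 by edgeR and 0.179 in the edgeR fit with the pairing as a replicate block. Without the filter on low counts it was the only member called, with an adjusted p of 4.487e-04 by edgeR. In that setting 236 of 19935 genes were called, against 9 of 14316 with the filter, and the log2 fold change of Cox5b was -0.70.

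Cox6c, the most abundant subunit of complex IV per kilobase, measured 446 and 367 CPM in wildtype against 266 and 470 CPM in mutant libraries. Cox7b, which is X-linked, measured 511 and 429 CPM in wildtype against 274 and 450 CPM in mutant libraries. Both thus had their lowest value in mutant 1 and similar values in the other 3. The X-linked genes of complex I, Ndufa1 and Ndufb11, had pair 2 ratios of 0.47 and 0.05, and Cox7b of 0.07, in the pair whose libraries differ in sex. Cox5a had ratios of 0.05 in both pairs. Cox7b2, the testis isoform, was at 0.28 to 0.75 CPM and too low to weigh.

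Isoforms of complex IV subunits were set against each other within a library, per kilobase of transcript. Cox6a2, the heart and skeletal muscle form of subunit 6A, made up 65.9% of Cox6a1 and Cox6a2 together in wildtype 1, 51.5% in wildtype 2, 51.3% in mutant 1 and 50.1% in mutant 2. Wildtype 1 thus stood apart from the other 3 libraries. Cox6a2 itself measured 77.3 and 40.5 CPM in wildtype against 36.5 and 44.9 CPM in mutant libraries, with pair ratios of -1.08 and 0.15, and its log2 fold change was -0.54 ± 0.27 (SE). Cox6a1, the form of most other tissues, measured 33.6 and 32.0 CPM in wildtype against 29.1 and 37.6 CPM in mutant libraries, and its log2 fold change was 0.02 ± 0.17 (SE).

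The other muscle forms were minor. Cox7a1 made up 21.5% to 24.4% of Cox7a1 and Cox7a2. Cox8b made up 14.7%, 15.9%, 10.5% and 15.6% of Cox8a and Cox8b in wildtype 1, wildtype 2, mutant 1 and mutant 2, so mutant 1 was lowest. Cox8b measured 8.36 and 7.70 CPM in wildtype against 3.92 and 8.47 CPM in mutant libraries, and Cox7a1 11.9 and 17.6 CPM in wildtype against 8.80 and 19.6 CPM in mutant libraries. Together the 3 heart and muscle forms had median pair ratios of -1.07 and 0.15, and the 11 ubiquitous or sole forms -0.52 and 0.16. Cox4i2, the form of subunit 4 found mainly in lung, made up 1.88% to 2.58% of Cox4i1 and Cox4i2, and Cox6b2, the testis form, 1.09% to 1.36% of Cox6b1 and Cox6b2. Ubiquitous partners followed mutant 1 as well: Cox6b1 measured 194 and 228 CPM in wildtype against 135 and 254 CPM in mutant libraries, and Cox8a 74.1 and 62.0 CPM in wildtype against 51.1 and 70.0 CPM in mutant libraries. Cox7a2 had the highest log2 fold change of well-expressed complex IV subunits, 0.05 ± 0.32 (SE), from 72.4 and 91.4 CPM in wildtype against 51.1 and 119 CPM in mutant libraries. Cox4i1 was among the steadiest, with 221 and 203 CPM in wildtype against 184 and 223 CPM in mutant libraries.

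**Figure D3:**
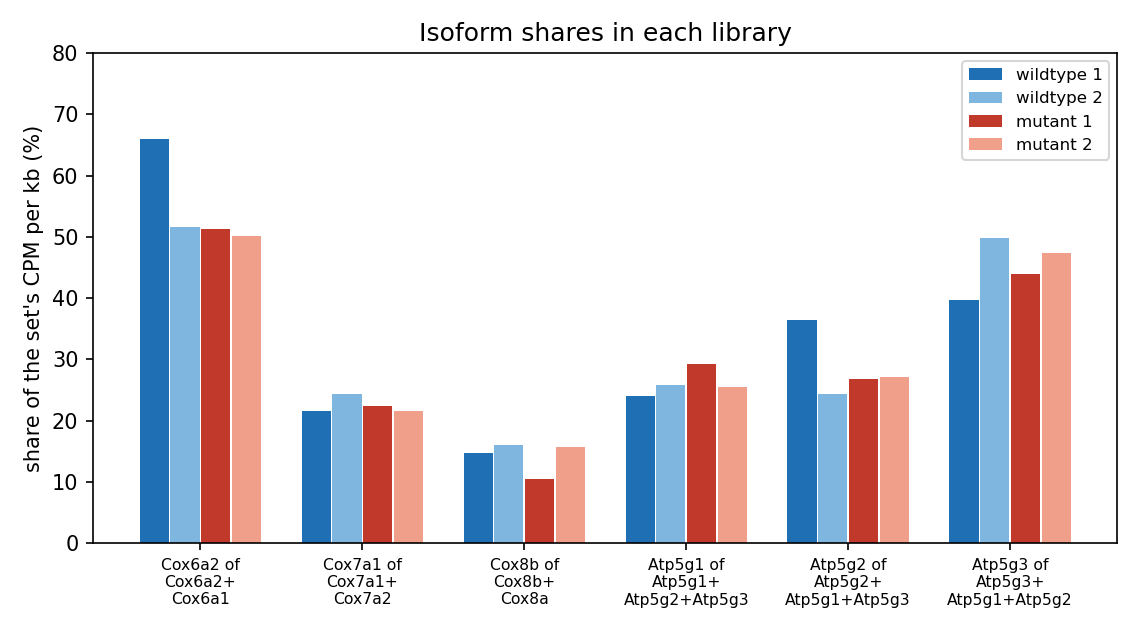
Share of each isoform within its set, in percent of CPM per kilobase, in the 4 libraries; a bar is 1 library. Cox6a2 takes 65.9% of its set in wildtype 1 and 50.1% to 51.5% in the other 3 libraries.

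Complex V had 12 of 15 subunits lower in pair 1, with a median of -0.43, and 13 of 15 higher in pair 2, with a median of 0.12. By part of the enzyme, the peripheral stalk (Atp5f1, Atp5h, Atp5j and Atp5o) had the lowest pair 1 median, -0.65, and all 4 were lower in pair 1 and higher in pair 2. Atp5b (chr10:128083273-128090391, plus strand) measured 1817 and 1522 CPM in wildtype against 1303 and 1657 CPM in mutant libraries, and Atp5a1 1617 and 1365 CPM in wildtype against 1287 and 1505 CPM in mutant libraries. Both kept the common order, and their log2 fold changes were -0.17 ± 0.17 and -0.10 ± 0.16 (SE). The small F1 subunits Atp5d and Atp5e, which belong to the central stalk, instead were higher in both pairs. Atp5d measured 28.1 and 35.5 CPM in wildtype against 35.9 and 39.2 CPM in mutant libraries. It was the only subunit whose mutant libraries both exceeded both wildtype libraries, by a narrow margin, with a log2 fold change of 0.24 ± 0.17 (SE) and an adjusted p of 0.961 by edgeR. Atp5e had pair ratios of 0.45 and 0.05.

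Atp5k and Atp5l encode small membrane subunits that join the enzyme into dimers, and both were lower in both pairs. Atp5j2, also of the membrane part, had pair ratios of -0.19 and 0.32. Atp5k (chr5:108433244-108434448, minus strand) measured 103 and 91.4 CPM in wildtype against 62.3 and 79.6 CPM in mutant libraries, without overlap. The log2 fold change of Atp5k was -0.45 ± 0.16 (SE; unadjusted p 0.0166), and its adjusted p by edgeR, 0.629, was the smallest of any member. Atp5l measured 117 and 124 CPM in wildtype against 75.2 and 103 CPM in mutant libraries. The promoter of Atp5k holds the NRF1 pattern. Over the 16 tested subunits with that pattern the medians were -0.43 in pair 1 and 0.01 in pair 2, and over the 50 with a promoter but without it -0.50 and 0.15.

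The c-ring of complex V is built from 1 protein encoded by 3 genes, Atp5g1, Atp5g2 and Atp5g3, whose mature products are the same. Atp5g3 took the largest share per kilobase in every library, 39.7% and 49.9% in wildtype and 43.9% and 47.3% in mutant libraries. Atp5g2 took 36.4% in wildtype 1 and 24.3% to 27.2% in the other 3. Atp5g3 measured 69.3 and 126 CPM in wildtype against 66.7 and 132 CPM in mutant libraries, which sets replicate 1 against replicate 2 rather than wildtype against mutant. Atp5g2 measured 65.0 and 62.8 CPM in wildtype against 41.6 and 77.5 CPM in mutant libraries, and Atp5g1 34.9 and 54.5 CPM in wildtype against 37.1 and 59.4 CPM in mutant libraries. Of the Atp5-named rows not counted as subunits, Atp5sl had a log2 fold change of -0.36 ± 0.17 (SE), from 29.1 and 24.6 CPM in wildtype against 21.5 and 20.3 CPM in mutant libraries, without overlap.

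**Figure D4:**
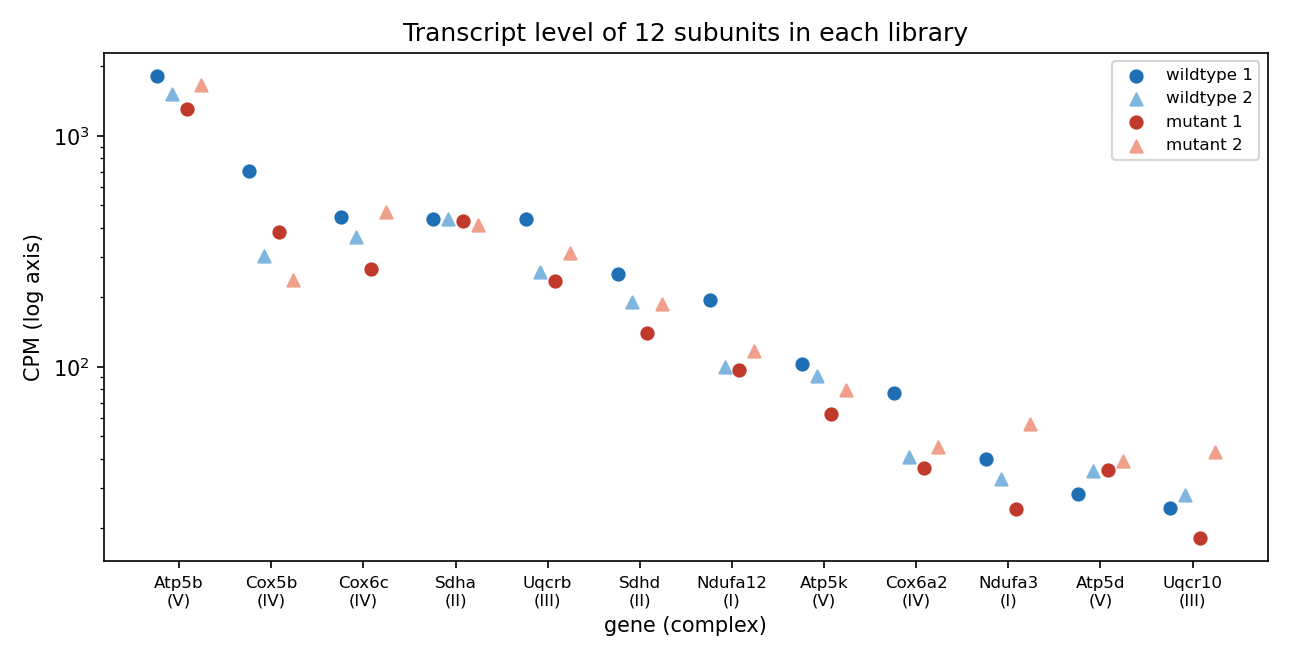
CPM of 12 subunits in each library on a log axis, with circles for replicate 1 and triangles for replicate 2. Sdha lies between 412 and 438 CPM in all 4 libraries, while Cox5b runs from 239 to 706 CPM.

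Complexes can be compared by their summed levels. Complex I summed to 4133 and 3209 CPM in wildtype against 2896 and 3633 CPM in mutant libraries. Complex III summed to 1514 and 1179 CPM in wildtype against 1025 and 1283 CPM in mutant libraries, and complex IV to 2584 and 2031 CPM in wildtype against 1574 and 2210 CPM in mutant libraries. Complex V, the largest sum, gave 6136 and 5237 CPM in wildtype against 4495 and 5620 CPM in mutant libraries. All 4 had the order wildtype 1, mutant 2, wildtype 2, mutant 1. Complex II, with 973 and 886 CPM in wildtype against 799 and 876 CPM in mutant libraries, varied least, and wildtype 2 lay above mutant 2. The median log2 fold changes were -0.16, -0.10, -0.19, -0.14 and -0.17 for complexes I to V, close to each other beside the spread between libraries of one genotype.

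Transcript length moved with these values. Subunit transcripts are short, with a median of 732 bases against 2958 for all tested genes. Over all genes under 1 kb the median log2 ratio was -0.23 in pair 1 and 0.10 in pair 2, and over those above 4 kb 0.09 and -0.03. The 53 subunits under 1 kb had medians of -0.50 and 0.13. The 20 between 1 and 2 kb had -0.49 and 0.14, where all genes of that length had -0.10 and 0.05. Once the trend with length was removed from each library, the subunits had medians of -0.27 in pair 1 and 0.04 in pair 2. By complex, these medians ran from -0.19 (complex III) to -0.31 (complex V) in pair 1 and from -0.02 (complex II) to 0.06 (complexes I and III) in pair 2. In pair 2 they were thus near 0, and the ratio of 49 of 79 subunits was above 0. In pair 1 the ratio of 64 of 79 subunits was below 0. GC content moved with the pair 1 values too: over all genes the median was -0.14 at 45% GC or less and 0.12 above 55%. In pair 2 these medians were -0.003 and 0.005. The subunits in the same classes had pair 1 medians of -0.86 (8 subunits) and -0.39 (23 subunits). With length and GC trends both removed (chosen after seeing the data), the subunit medians were -0.30 in pair 1 and 0.04 in pair 2.

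**Figure D5:**
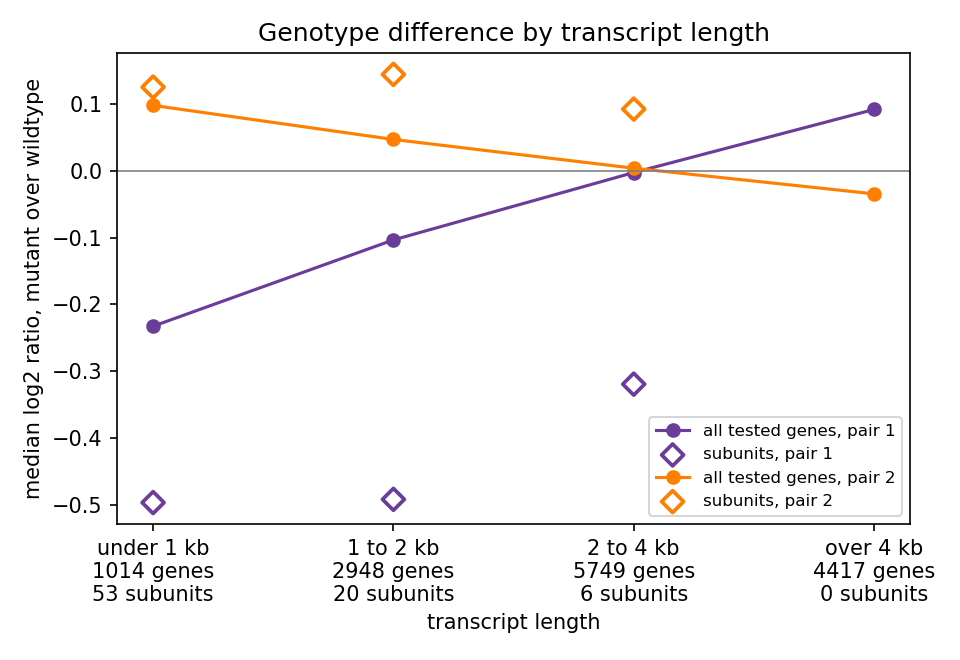
Median log2 ratio of mutant over wildtype by transcript length, with lines for all tested genes and open diamonds for subunits, in pair 1 and pair 2. All genes slope in opposite directions in the pairs, and in pair 1 the subunits lie below the line in the 3 length classes that hold any.

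Heart muscle markers had a like order in pair 1. The 24 cardiomyocyte markers had a median log2 ratio of -0.37 in pair 1 and 0.01 in pair 2, with 0 called, and summed to 87521 and 78200 CPM in wildtype against 69174 and 75934 CPM in mutant libraries. Wildtype 1 was the highest library for 17 of them and mutant 1 the lowest for 15. The 15 endocardial and endothelial markers had medians of 0.07 and -0.01, and the 13 mesenchyme markers 0.02 and -0.09. Leukocyte markers were higher in both mutant libraries, summing to 201 and 198 CPM in wildtype against 300 and 333 CPM in mutant libraries, with Ptprc and Mpeg1 called of 15. Of 12 tested erythroid markers Hemgn was called, and the list had medians of 0.82 and 0.53. The part of muscle content, of blood cells, of transcript length and of GC content in the values of the subunits was not tested.

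Other genes of the organelle were read from lists, and 0 genes in them passed the threshold. The 76 mitochondrial ribosomal proteins had medians of -0.32 in pair 1 and 0.10 in pair 2, the 14 genes of the citric acid cycle -0.30 and 0.06, and the 16 of fatty acid oxidation -0.38 and 0.14. The 78 tested cytosolic ribosomal proteins, which have short transcripts and act outside the mitochondrion, had -0.32 and 0.22. The contrast between pairs is therefore shared with genes outside oxidative phosphorylation. With the length trend removed, the cytosolic ribosomal proteins had medians of -0.11 and 0.16 and the mitochondrial ones -0.21 and 0.06. The citric acid cycle then had -0.29 and 0.05 and fatty acid oxidation -0.29 and 0.13, beside -0.27 and 0.04 for the subunits. The 12 tested complex IV assembly genes had medians of -0.16 and -0.003, and the 7 tested complex I assembly factors outside the symbol rule -0.32 and 0.09. Lists of subunit and assembly genes outside the rule gave -0.57 and 0.12 for complex V (7 tested). For complex III (4 tested, with Cyc1) they gave -0.03 and 0.14. The 18 tested regulators of mitochondrial biogenesis had -0.02 and 0.05. Among them, Ppargc1a, the coactivator PGC-1alpha, measured 255 and 224 CPM in wildtype against 255 and 220 CPM in mutant libraries.

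Of the genes that work with complexes III and IV under other names, Cycs and Cyc1 diverged. Cycs, which encodes the electron carrier cytochrome c, measured 608 and 461 CPM in wildtype against 333 and 473 CPM in mutant libraries, the common order, with a log2 fold change of -0.41 ± 0.20 (SE). Cyc1, the cytochrome c1 subunit of complex III, measured 74.9 and 83.6 CPM in wildtype against 96.0 and 112 CPM in mutant libraries. It was higher in both pairs, by log2 ratios of 0.36 and 0.43, with a log2 fold change of 0.39 ± 0.14 (SE), an unadjusted p of 0.0198 and an adjusted p of 0.672 by edgeR. Cyc1 was singled out after its values were seen.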

How the data were processed

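Total RNA of 4 cushion libraries was depleted of ribosomal RNA and made into libraries with the ScriptSeq kit, per the labels' protocols. Raw counts, with 1 row for each symbol, were deposited by the authors. The submitters' processing notes name TopHat2, Bowtie2, HTSeq, SAMtools, edgeR and the mm10 build. They give no version, annotation or strand setting, so overlapping and antisense genes cannot be told apart. Library sizes leave out reads outside any feature (51.8% to 54.4%), reads placed at several loci (16.1% to 17.0%) and ambiguous ones (0.187% to 0.210%). A second table, deposited by the authors, holds their edgeR comparison, with log2 fold changes, a likelihood ratio score, p-values and, in a further column, the fold as a ratio, per the file headers. Its log2 values were turned to mutant over wildtype.

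The counts went through edgeR 4.0.16 under R 4.3.3 (TMM scaling, filterByExpr, which left 14316 genes, quasi-likelihood F test for genotype, 2 residual degrees of freedom, Benjamini-Hochberg adjustment over all tested genes, threshold 0.05). Log2 CPM used a prior count of 2, and pair ratios are differences of it. The biological coefficient of variation was 14.5%. The test borrows variance across genes, with 7.14 prior degrees of freedom. Each p and SE of the edgeR fit thus rests partly on the spread of other genes. An exact permutation test of 2 against 2 libraries cannot go below 0.333 and was not used. Transcript length and GC content come from the shortest principal transcript in GENCODE M21, available for 14128 tested genes, and gene positions from the same release (mm10). The trend with length was a lowess curve of span 0.3. Limits from read numbers cover counting error alone: without molecular identifiers, reads are not independent molecules. No column of other samples was present.

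The series names the samples as pairs, and the 2 libraries with the same number deviated together from their group means, with a correlation of 0.144 across genes (genes are no replicates). Over the subunits they went apart: the median log2 ratio of replicate 2 over replicate 1 was -0.25 in wildtype and 0.37 in mutant libraries. Alternatives were the replicate block, other scalings, other filters, DESeq2 1.42.0, the length trend, leaving out each library in turn, and a threshold of 0.10; removal of length and GC trends together was chosen after seeing the data. Members and lists were chosen with earlier results of these data known. The subunits described in most detail were those past the threshold, the 2 of highest CPM per kilobase, the extremes of log2 fold change and of the difference between pairs at a mean of 10 CPM or more in each complex, complex II, the isoform sets, and the row outside the subunits with the largest change; 1 such row is not reported here, and others illustrate a group and were chosen after their values were seen.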

Additional observations from a re-analysis of the deposited data

How the results depend on the processing

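The count of genes past the threshold was 9, and it was 127 with the replicate block, 108 with the replicate block and the length trend removed, 16 with the length trend removed, 21 with length and GC trends removed (chosen after seeing the data), 236 without the filter, 62 by DESeq2 and 24 at a threshold of 0.10. Leaving out 1 library gave 3 to 443 genes. No member was called under these settings except Cox5b without the filter, which made 1, and 0 to 21 were called when 1 library was left out. The replicate block changed no call of a member. Complex medians kept their sign in all settings that keep the 4 libraries, and the block moved the subunit median from -0.14 to -0.17. With 1 library left out they ran from -0.39 to -0.01 (complex I), -0.22 to -0.10 (II), -0.42 to 0.04 (III), -0.63 to 0.075 (IV) and -0.35 to -0.01 (V). The lowest median of each complex came from the fit without mutant replicate 2. There 74 of 79 subunits lay below 0, with a median of -0.40, against -0.003 over all tested genes. Without mutant replicate 1, 40 of 79 lay below 0, and the log2 fold change of Cox5b was -1.08. Cox4i1 turned to 0.018 with the length trend removed and to 0.019 with the replicate block and the length trend removed, and Cox7a2 to -0.055 with the replicate block. The log2 fold change of 22 of 30 named rows changed sign when 1 library was left out. The ranges were -0.21 to 0.035 for Atp5a1, -0.26 to 0.46 for Atp5g1, -0.61 to 0.28 for Atp5g2, -0.54 to 0.52 for Atp5g3, -0.19 to 0.075 for Cox4i1, -1.18 to 0.051 for Cox5b, -0.17 to 0.19 for Cox6a1, -0.93 to 0.0082 for Cox6a2, -0.63 to 0.27 for Cox6b1, -0.40 to 0.49 for Cox6b2, -0.61 to 0.21 for Cox6c and -0.73 to 0.41 for Cox7a1. They were -0.67 to 0.54 for Cox7a2, -0.41 to 0.038 for Cox8a, -1.03 to 0.075 for Cox8b, -0.86 to 0.11 for Ndufa12, -0.57 to 0.63 for Ndufa3, -0.40 to 0.16 for Sdhb, -0.36 to 0.19 for Sdhc, -0.52 to 0.70 for Uqcr10, -0.69 to 0.092 for Uqcrb and -0.65 to 0.092 for Uqcrh. The cause was not tested. The lone library of a genotype is assumed there to vary like the others. With 2 libraries a genotype, a difference smaller than the spread between libraries of one genotype was not detectable.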
